A study of Homo sapiens with 12 samples.

Results

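Hyaluronan is a long, unbranched sugar polymer of the pericellular coat and the extracellular matrix. It is made at the plasma membrane by hyaluronan synthases from UDP-glucuronic acid and UDP-N-acetylglucosamine, it is cut by hyaluronidases, and it is bound at the cell surface mainly by CD44. The 8 genes described here cover these steps in T24, an established bladder cancer cell line. They are the synthases HAS1, HAS2 and HAS3, the hyaluronidases HYAL1, HYAL2 and HYAL3, the receptor CD44, and UGDH, the dehydrogenase that makes UDP-glucuronic acid. They were taken by gene name from 60504 deposited gene entries, and all 8 were found. The genes were selected on earlier results from the same 12 libraries, by comparison and by line label, so their levels and differences are a description and carry no test.

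RNA was sequenced from T24 cells in which U11, the small nuclear RNA that recognizes the 5′ splice site of minor introns, was targeted. Labels of U11 knockout (U11-KO) were given to 2 libraries, which were compared with 2 labelled untreated (the knockout comparison). Labels of U11 overexpression (U11-OE) were given to 6 libraries, which were compared with 2 others labelled untreated (the overexpression comparison). The untreated libraries are called controls. The U11-OE libraries carried the line labels 79, 86 and 87, with 2 libraries each, replicates 1 and 3. Per the study's methods, knockout cells were made with 2 Cas9 guides expressed from a plasmid and monoclonal lines were selected, with a guide vector as the transfection control. Overexpressing cells were transfected with a U11 plasmid and also selected as monoclonal cultures. A difference between a line label and its control can therefore include differences between clones, and the 2 cannot be told apart here. The sources do not say what the line labels stand for, or whether libraries of one group came from separate cultures, so the spread between them may be technical.

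Depth was 13.65 to 15.17 aligned gigabases per library in the knockout comparison, and the overexpression libraries held 9.07 to 15.33. In the former, 10 genes took 45.5% to 49.6% of all TPM (a level scaled by transcript length and to a fixed total per library), and in the latter 7.1% to 7.6%. Levels were therefore compared within each comparison and not between them. RNU11, the U11 gene (1 locus on chromosome 1, 28648600 to 28648733, hg38, listed as 2 overlapping entries that were summed), reached 21.4 and 23.8 TPM in the knockout controls. In the libraries labelled U11-KO it reached 31.6 and 37.4 TPM, which goes against that label. By quantitative PCR, the study reported less U11 in its knockout line and more in its overexpressing line than in wild-type T24. U11 carries no poly(A) tail, and the labels give polyA RNA as the molecule while the methods name depletion of ribosomal RNA. RNU11 in the overexpression controls was 0.033 and 0.623 TPM, against 0.183 and 0.412 in line label 79, 3.98 and 3.72 in 86, and 61.9 and 53.6 in 87, so the libraries of 79 did not stand above their controls. Keratins marked the cells as epithelial, with 6 or 7 of 12 urothelial and epithelial markers at 1 TPM or more in each group, while KRT5 and the uroplakins UPK1A, UPK1B, UPK2 and UPK3A were under 1 TPM throughout.

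The 8 genes kept a broad order of TPM. CD44 exceeded UGDH and UGDH exceeded HYAL2 in 12 of 12 libraries. Over all libraries CD44 ranged from 144 to 399 TPM, UGDH from 50.2 to 129 and HYAL2 from 18.1 to 40.1. HAS2 ranged from 2.20 to 26.8 TPM, HAS3 from 1.58 to 13.6 and HYAL3 from 1.69 to 4.50, and HYAL2 was above these 3 in 10 of 12 libraries. HYAL1 (0.119 to 0.976 TPM) was under 1 TPM in 12 of 12 libraries, and HAS1 (at most 0.104 TPM) was listed at 0 in 4. In the controls of the knockout comparison CD44 stood above 96.7% of the 14356 genes tested and UGDH above 89.6%, whereas HAS2 stood above 19.9% and HAS3 above 14.4%. In the overexpression controls CD44 stood above 97.7% of 15768 genes, HAS2 above 36.8% and HAS3 above 42.7%. The mean read depth per transcript position was 1068 to 2455 for CD44, 12.4 to 286 for HAS2 and 16.5 to 65.5 for HAS3, but at most 3.48 for HYAL1 and 0.846 for HAS1, so no change of HYAL1 or HAS1 could be resolved at this depth.

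**Figure D1:**
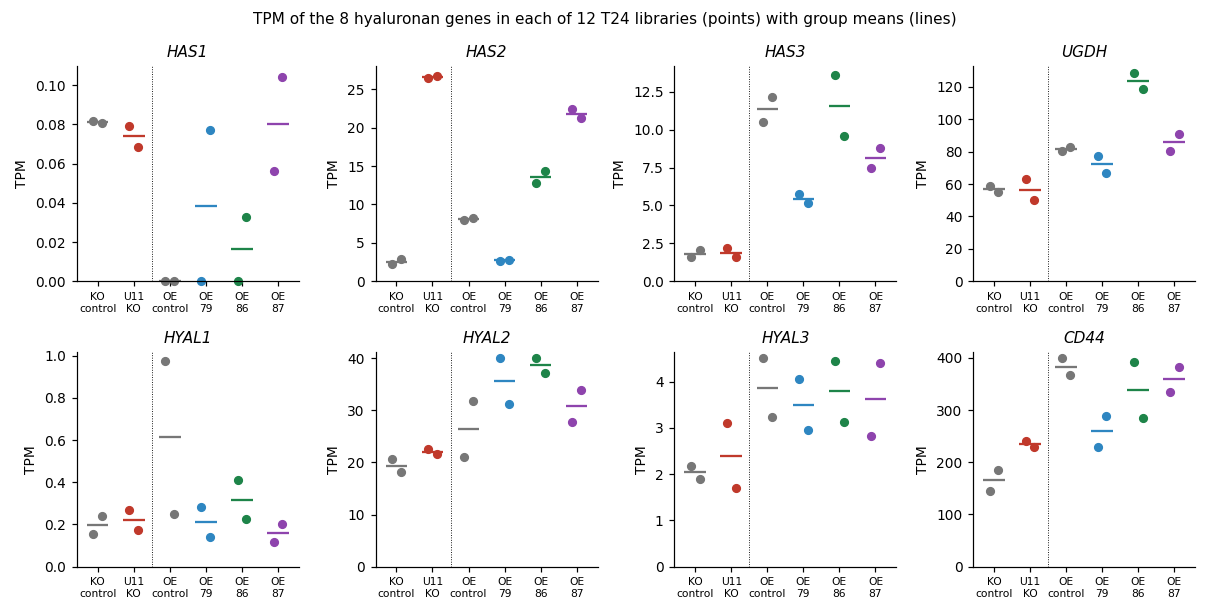
TPM (vertical axes, linear, one scale per gene) of the 8 hyaluronan genes in each of 12 libraries (points), with group means (horizontal lines). KO is the knockout comparison and OE the overexpression comparison with its 3 line labels. HAS2 stands at 26.5 and 26.8 TPM with the U11-KO label and spreads from 2.66 to 22.4 TPM over the line labels.

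HAS2, the synthase known for long hyaluronan chains and for its role in embryonic development, had the largest knockout difference and the widest range between line means of the 6 members that could be tested. It lies on the minus strand of chromosome 8 from 121612116 to 121641390 (hg38). The knockout controls held 2.20 and 2.87 TPM of HAS2, and the libraries labelled U11-KO 26.5 and 26.8 TPM. The groups did not overlap, and the ratio of the means was 10.51. In such bulk libraries, more cells that express a gene and more RNA per cell cannot be told apart. On the log2(TPM + 1) scale, which understates changes of low genes, the difference was 2.97 ± 0.14 (SE, limma, 2 against 2). The overexpression controls were close together, at 8.003 and 8.25 TPM, whereas the 6 U11-OE libraries ran from 2.66 over a median of 13.5 to 22.4 TPM. The mean difference of 0.23 ± 0.75 (SE, 6 against 2) joined lines that lay on either side of the control. The overexpression fits took the 6 libraries as independent, although they belong to 3 line labels, so standard errors and P values may be too small. With the mean of each line label, the log2 fold change of HAS2 was 0.24.

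Split by line label, HAS2 was at 2.66 and 2.81 TPM in 79, 12.8 and 14.3 in 86, and 22.4 and 21.3 in 87. Against the control of the same library batch (the leading number of the library identifier), the TPM ratio was 0.33 and 0.34 in 79, 1.59 and 1.73 in 86, and 2.80 and 2.58 in 87. Both libraries of 79 were thus below both controls, and the 4 libraries of 86 and 87 were above them. The line means spanned 2.61 log2 units, while the largest gap between 2 libraries of one line was 0.15. The order of HAS2 over the line labels was that of RNU11, but 3 lines allow no statement on the relation.

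HAS2-AS1, an antisense transcript whose entry overlaps HAS2 on the other strand, had 0.347 and 1.03 TPM in the knockout controls, and 3.94 and 2.91 TPM were found in the libraries labelled U11-KO. Its level was 1.78 and 1.24 TPM in the overexpression controls, and its values overlapped between the line labels, from 0.444 in 79 to 2.90 in 87. The sources do not say whether reads were assigned by strand, so reads of HAS2 and HAS2-AS1 cannot be told apart where the 2 entries overlap.

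**Figure D2:**
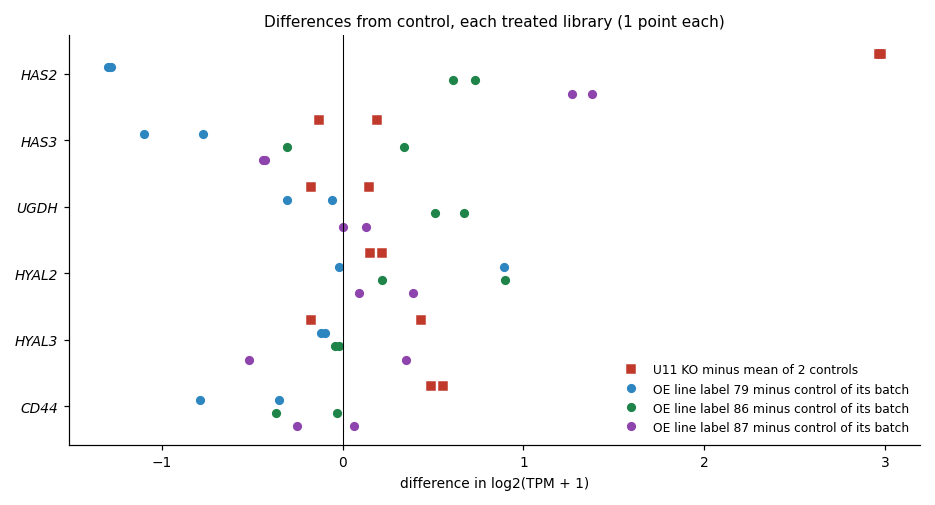
Difference in log2(TPM + 1) between each treated library and its control (horizontal axis) for the 6 members at 1 TPM or more in at least 2 libraries. Squares are the 2 libraries labelled U11-KO against the mean of 2 controls, and circles are the 6 U11-OE libraries against the control of their library batch. HAS2 lies near 2.97 in the libraries labelled U11-KO, near -1.3 in line label 79 and at 1.27 and 1.38 in 87.

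HAS3, a synthase known for making shorter chains, behaved otherwise. Its entry lies on the plus strand of chromosome 16 from 69105564 to 69118719 and overlaps CHTF8, a DNA replication factor gene on the other strand. CHTF8 was higher, at 20.2 TPM in the knockout controls and 59.5 TPM in the overexpression controls (means, n = 2 each). As strand assignment is not known, reads of HAS3 and CHTF8 cannot be told apart where the 2 entries overlap. HAS3 was at 1.604 and 2.06 TPM in the knockout controls. The libraries labelled U11-KO, at 2.21 and 1.58 TPM, overlapped with them (log2 difference 0.03 ± 0.17, SE). Its overexpression controls had 10.49 and 12.2 TPM, and the line labels held 5.75 and 5.16 in 79, 13.6 and 9.59 in 86, and 7.47 and 8.77 in 87. The libraries of 79 and 87 were below both controls, whereas the 2 libraries of 86 lay on either side of them. Against the control of the same batch the TPM ratio of HAS3 was 0.55 and 0.42 in 79, and 0.71 and 0.72 in 87. In 87, HAS2 was thus above and HAS3 below the control of each batch.

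As TPM is scaled by transcript length, the synthases can be set side by side within a library. HAS2 made up 56.6% and 57.3% of the summed synthase TPM in the knockout controls and 92.0% and 94.2% in the libraries labelled U11-KO, while the sum went from 3.88 and 5.004 TPM to 28.8 and 28.4 TPM. In the overexpression controls HAS2 held 43.3% and 40.4% of the sum. In line label 79 its share was 31.6% and 34.9%, in 86 it was 48.4% and 59.8%, and in 87 it was 74.9% and 70.6%. By these TPM, HAS3 was the larger synthase in both overexpression controls and in 79, and HAS2 the larger in 87. The limits on reads shared with HAS2-AS1 and with CHTF8 hold for these shares as well. The summed synthase TPM was lowest in 79 (8.41 and 8.04 TPM) and highest in 87 (29.9 and 30.2 TPM), with 18.5 and 20.4 TPM in the controls. HAS1 held at most 2.1% of the sum.

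**Figure D3:**
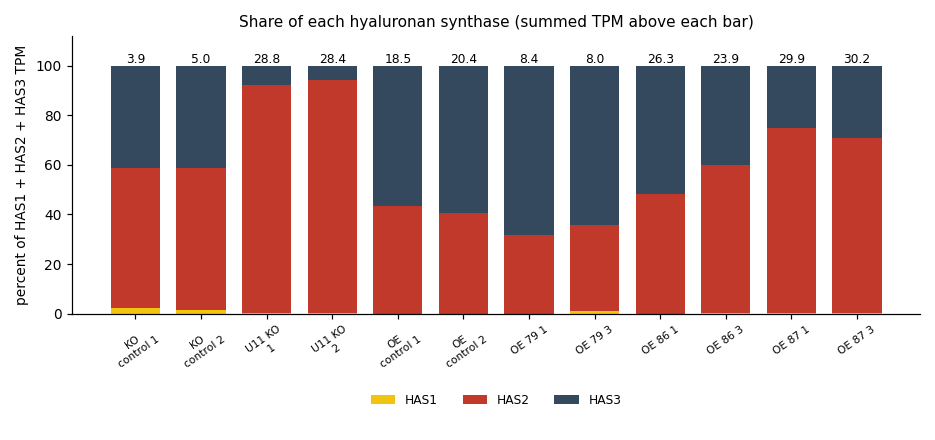
Percent of the summed TPM of HAS1, HAS2 and HAS3 held by each synthase in each of 12 libraries (stacked bars from 0 to 100%), with the sum in TPM above each bar. HAS2 holds 92.0% and 94.2% in the libraries labelled U11-KO and 31.6% and 34.9% in line label 79.

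HAS1 lies on the minus strand of chromosome 19 from 51713112 to 51723994, and no other entry overlaps it. The sequences before RefSeq start sites of HAS1 and HAS3 are shown because HAS1 was nearly silent and HAS3 was expressed in these cells. They come from the RefSeq promoter windows of GRCh38.p14, which run from 250 bases before to 50 bases after a start. Windows were found for 7 of 8 members (2 for HYAL3, none for HAS2). The 250 bases before the start are printed 5′ to 3′ on the gene's strand, with capitals marking the searched motifs (the GC box GGGCGG, the E-box CACGTG, the cAMP response element TGACGTCA, the AP-1 motif TGACTCA, the TATA box TATAAA and the NF-kappa B motif, on either strand). The HAS3 stretch is chr16:69107290-69107539 (plus strand, 66.0% G and C), and the HAS1 stretch is chr19:51723992-51724241 (minus strand, 69.2% G and C). Neither stretch overlaps an exon of GENCODE release 44. The HAS3 stretch lies inside the HAS3 entry, and which start site these cells use was not tested.
HAS3: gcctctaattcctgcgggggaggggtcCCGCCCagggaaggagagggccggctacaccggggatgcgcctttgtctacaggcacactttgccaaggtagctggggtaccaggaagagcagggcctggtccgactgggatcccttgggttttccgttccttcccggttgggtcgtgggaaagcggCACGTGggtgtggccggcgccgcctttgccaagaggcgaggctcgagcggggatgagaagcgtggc
HAS1: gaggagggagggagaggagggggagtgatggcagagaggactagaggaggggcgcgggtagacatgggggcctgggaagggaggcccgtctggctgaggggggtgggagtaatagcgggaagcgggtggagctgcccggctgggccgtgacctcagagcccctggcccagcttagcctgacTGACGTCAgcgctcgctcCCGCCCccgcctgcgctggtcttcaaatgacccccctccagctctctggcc

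The HAS3 window held the E-box (positions -66 to -61 from the start), which 7.26% of all 35116 windows hold. The HAS1 window held the cAMP response element (positions -69 to -62), which 1.85% of windows hold. The GC box was in 6 of the 7 members' windows and in 45.0% of all windows. The NF-kappa B motif was in a window of 1 member, HYAL3, and in 12.3% of all windows. The TATA box (11.5% of windows) and the AP-1 motif (4.95%) were in none of the members' windows. No 2 matches overlapped in the members' windows. They describe the letters of the windows and say nothing on the binding of a factor.

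UGDH, whose product is also used for proteoglycan synthesis and glucuronidation, lies on the minus strand of chromosome 4 from 39498755 to 39528311 and overlaps UGDH-AS1 on the other strand, which stayed under 1 TPM. UGDH measured 58.6 and 55.0 TPM in the knockout controls, and the libraries labelled U11-KO, at 62.9 and 50.2 TPM, lay on either side (log2 difference -0.02 ± 0.14, SE). Its overexpression controls had 80.8 and 83.1 TPM, and the line labels 77.6 and 67.1 in 79, 129 and 119 in 86, and 80.7 and 90.9 in 87. Line label 86 stood above all other libraries of the overexpression comparison, at 1.59 and 1.43 times the control of its batch. The line means spanned 0.77 log2 units, against a largest gap of 0.21 within a line. Line 86 was also the line with the highest HAS3 mean, 11.6 ± 2.82 TPM (SD, n = 2), although its 2 libraries differed by 0.46 log2 units.

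CD44, the main hyaluronan receptor and a carrier of matrix-bound growth factors, lies on the plus strand of chromosome 11 from 35138870 to 35232402. Its entry overlaps RP1-68D18.2 on the same strand and RP1-68D18.4 on the other, so reads in the shared parts cannot be assigned with certainty. The level of CD44 was 144 and 186 TPM in the knockout controls, and the U11-KO label held 241 and 230 TPM. The groups did not overlap, the ratio of means was 1.42, and the log2 difference was 0.52 ± 0.14 (SE), which is under the threshold of 1.5 fold. Against all 4 untreated libraries the log2 fold change of CD44 was -0.09 in the knockout comparison and 0.32 in the overexpression comparison. That setting joins library types of different composition, with mean CD44 of 165 TPM in the knockout controls and 383 TPM in the overexpression controls. The change of sign is therefore not read as a result on CD44. CD44 had 399 and 368 TPM in the overexpression controls, and the line labels 230 and 288 in 79, 391 and 285 in 86, and 335 and 383 in 87. Both libraries of 79 were below both controls, at 0.58 and 0.78 times the control of their batch. Neighbouring lines in the order 79, 86, 87 overlapped, and the range of the line means, 0.48 log2 units, was close to the largest gap within a line, 0.46. The gene tables sum the CD44 isoforms, so standard and variant CD44 were not resolved.

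The hyaluronidase genes HYAL3, HYAL1 and HYAL2 lie in this order within 30.1 kilobases of chromosome 3 (50292831 to 50322906), all on the minus strand. HYAL2, a hyaluronidase anchored at the cell surface, was the only one above 5 TPM. The knockout controls held 20.7 and 18.1 TPM, and the libraries labelled U11-KO 22.6 and 21.6 TPM (log2 difference 0.18 ± 0.11, SE). The difference was 0.07 after median ratio scaling. It was -0.02 against all 4 untreated libraries, which joins library types of different composition. HYAL2 was at 21.1 and 31.8 TPM in the overexpression controls, whereas the U11-OE libraries ran from 27.8 over a median of 35.5 to 40.1 TPM (log2 difference 0.41 ± 0.18, SE). With the control of the first library batch left out the log2 difference was 0.13, and without the other control it was 0.70, so its size rested on which control was used.

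HYAL3, whose own enzyme activity is in doubt, had 2.18 and 1.91 TPM in the knockout controls, against 3.11 and 1.69 TPM with the U11-KO label. Its values then ran from 2.83 to 4.44 TPM in the U11-OE libraries and were 4.50 and 3.24 TPM in their controls. The HYAL3 entry overlaps IFRD2 and NAT6 on the same strand, and the HYAL2 entry overlaps TUSC2, so reads in the shared parts cannot be assigned with certainty. IFRD2 was far higher, at 119 TPM in the overexpression controls (mean, n = 2). HYAL1, the lysosomal hyaluronidase, was at 0.153 to 0.267 TPM in the knockout comparison. Of the 8 libraries of the overexpression comparison 1 control held the highest value, 0.976 TPM, and the others lay between 0.119 and 0.411 TPM.

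Of the 8 members, 6 passed the filter of 1 TPM in at least 2 libraries in each comparison. With the thresholds of the study, a 1.5 fold change and P under 0.05 without adjustment, 1 of the 6 was past them in the knockout comparison, HAS2, which was higher. Of all genes tested, 8.61% were higher and 3.15% lower at these thresholds, and 4.78% and 2.08% with an adjusted P under 0.05. In the overexpression comparison 0 of 6 members were past them, against 0.767% of all genes higher and 1.16% lower, and 0.0507% and 0.114% with an adjusted P. Between the line labels HAS2 and UGDH were past the thresholds of the F-test (adjusted P under 0.05 and at least 1.5 fold between line means), as were 10% of all genes. The groups of 3 of the 6 members, HAS2, CD44 and HYAL2, did not overlap in the knockout comparison, as was true of 60.2% of all genes. In the overexpression comparison this held for 0 of 6 members and 9.9% of all genes. These contrasts chose the members, so the counts are a description.

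In the knockout comparison 63.7% of the tested genes had a log2 fold change above 0, with a median of 0.11, and 73.2% of the calls were higher. After median ratio scaling, quantile normalization or the use of FPKM, the median was 0.01, -0.01 and 0.02 and the share of higher calls was 54.3%, 51.7% and 55.7%. The median of the 6 members was 0.16, and HAS2, CD44, HYAL2 and HYAL3 lay above the median of all genes. The overexpression median was -0.02 over all genes and 0.04 over the 6 members.

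The other genes of the pathway were followed in 7 lists of 60 genes, which do not hold the members. In the knockout comparison 38 of the 60 were tested with limma, of which 5 rose and 2 fell, against 8.61% of all genes higher and 3.15% lower. Of 41 tested between the U11-OE libraries and their controls, 0 rose and 2 fell, VCAN and ANK3, against 0.767% and 1.16% of all genes. These counts are few and are not read as a result on the lists. The knockout count of 5 was 8 without replicate 2 of the controls and 3 without replicate 1 of the libraries labelled U11-KO. The median log2 fold change of the tested list genes was 0.14 and -0.03, against 0.11 and -0.02 over all genes. The numbers given here for each gene are mean TPM, n = 2 per group unless stated, with log2 fold changes of TPM + 1 and their limma standard errors.

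Of the genes that supply the precursor sugars, 2 of 10 rose in the libraries labelled U11-KO. PGM3, which interconverts N-acetylglucosamine phosphates on the way to UDP-N-acetylglucosamine, went from 13.6 ± 1.83 to 28.2 ± 2.41 TPM (SD). Its log2 fold change was 1.00 ± 0.14 (SE, limma, adjusted P = 0.0275), and both libraries were above both controls. GFPT1, the rate-limiting enzyme of the hexosamine pathway, went from 10.8 ± 4.73 to 18.5 ± 1.27 TPM (log2 fold change 0.79 ± 0.29, limma, adjusted P = 0.157). The GFPT1 call was lost without replicate 1 of the controls, where its log2 fold change was 0.37, and without either U11-KO library (0.72 and 0.85). It was also lost after median ratio scaling, quantile normalization or the use of FPKM (0.68, 0.66 and 0.67) and without a filter on low values (0.79). Against all 4 untreated libraries, which differ in composition, it was lost as well (0.31). With the U11-OE label 0 of 10 of these genes passed. NUDT14, a UDP-sugar hydrolase, had the largest of these differences, from 10.9 TPM in the controls to 15.7 TPM with the label (log2 fold change 0.48 ± 0.12, limma, adjusted P = 0.377), which is under 1.5 fold.

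Among the breakdown genes, TMEM2, a cell surface hyaluronidase now also named CEMIP2, rose in the libraries labelled U11-KO. It went from 9.23 ± 0.811 to 16.7 ± 1.51 TPM (SD), a log2 fold change of 0.79 ± 0.13 (SE, limma, adjusted P = 0.037). The lysosomal enzymes GUSB and HEXA, which remove single sugars from hyaluronan fragments, did not pass (log2 fold changes 0.03 and 0.41). HYAL4, SPAM1 and CEMIP were too low to test. Of the other receptors, HMMR, LAYN and TLR4 were tested in the knockout comparison and 0 of 3 passed, while LYVE1, STAB1 and STAB2 were under 1 TPM in the group means.

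**Figure D4:**
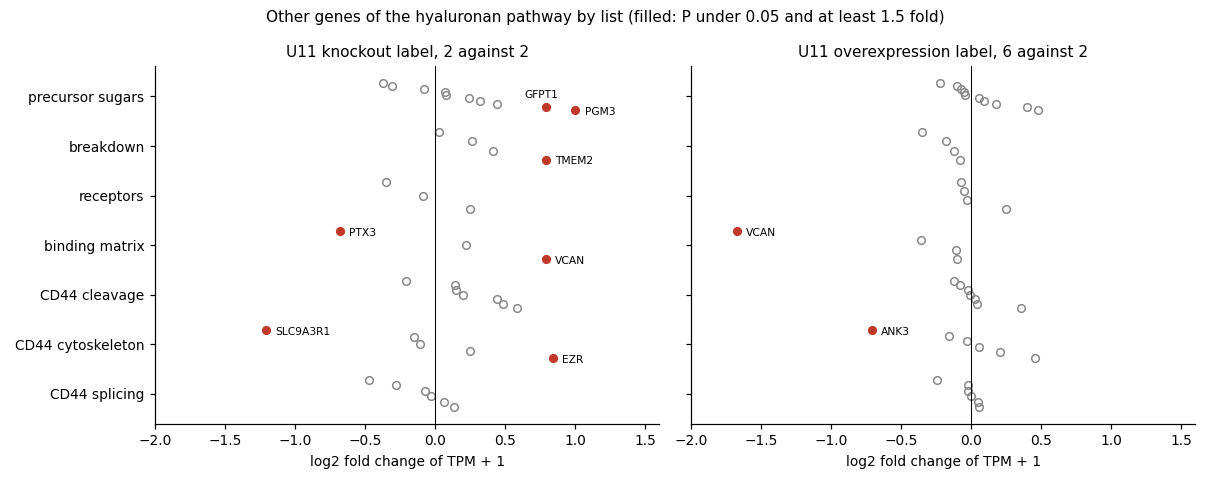
Log2 fold change of TPM + 1 (horizontal axis) of each tested gene of the 7 pathway lists (rows), left for the libraries labelled U11-KO (2 against 2) and right for those labelled U11-OE (6 against 2). Filled points passed an unadjusted P under 0.05 and 1.5 fold in limma. On the left 5 genes are filled above 0 and 2 below, and on the right 2 are filled below 0.

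Of 16 genes for hyaluronan-binding matrix proteins, 3 were expressed enough to test in the knockout comparison. VCAN, which codes for versican, a large proteoglycan that binds hyaluronan, rose from 1.13 ± 0.066 to 2.74 ± 0.851 TPM (SD), a log2 fold change of 0.79 ± 0.19 (SE, limma, adjusted P = 0.0765). PTX3, whose product pentraxin 3 links the hyaluronan-rich matrix, fell from 53.2 ± 2.01 to 32.8 ± 3.51 TPM (log2 fold change -0.68 ± 0.11, limma, adjusted P = 0.038). Without replicate 1 of the U11-KO libraries neither passed, at log2 fold changes of 0.56 and -0.58. VCAN was expressed at 6.77 and 5.74 TPM in the overexpression controls but at 0.261 and 0.425 in 79, 2.64 and 1.34 in 86, and 1.58 and 2.46 in 87. All 6 U11-OE libraries were below both controls (log2 fold change -1.67 ± 0.41, SE), and 9.9% of all genes likewise had groups without overlap. VCAN passed the unadjusted threshold, but its adjusted P in limma was 0.383. TNFAIP6, which transfers heavy chains onto hyaluronan, the heavy chain genes ITIH1, ITIH2 and ITIH3, and the link protein gene HAPLN1 were under 1 TPM in the group means.

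Of the genes linking CD44 to the cytoskeleton, EZR rose and SLC9A3R1 fell in the libraries labelled U11-KO. EZR codes for ezrin, which ties the CD44 tail to actin, and went from 232 ± 6.55 to 416 ± 20.7 TPM (SD), a log2 fold change of 0.84 ± 0.08 (SE, limma, adjusted P = 0.0151). SLC9A3R1, a scaffold that binds ezrin, had 25 and 27.1 TPM in the controls, against 15.3 and 7.33 TPM with the U11-KO label (log2 fold change -1.21 ± 0.33, limma, adjusted P = 0.0913). Its size rested on 1 library, with a log2 fold change of -0.73 without replicate 2 of the U11-KO libraries and -1.70 without replicate 1. ANK3, an ankyrin, fell from 1.81 ± 0.052 to 0.736 ± 0.254 TPM (SD, n = 2 and 6) in the libraries labelled U11-OE. Its log2 fold change was -0.71 ± 0.18 (limma, adjusted P = 0.41). The groups did not overlap, as for 9.9% of all genes, and all 6 U11-OE libraries were below both controls. Of these 6 libraries 1 reached 1 TPM, so ANK3 met the filter through the controls, where it was high, and its call gives no support to a change of the list.

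Of 7 genes for CD44 cleavage 0 passed in either comparison. MMP14, the membrane protease that cuts the CD44 ectodomain, had log2 fold changes of 0.44 ± 0.09 in the libraries labelled U11-KO and 0.36 ± 0.10 in the libraries labelled U11-OE (limma, adjusted P = 0.0571 and 0.464), both under 1.5 fold. Of the genes for CD44 splicing 0 of 6 tested passed in either comparison. ESRP1, a splicing factor known to promote variant exons of CD44, was at 0.185 TPM in the knockout controls and 0.053 TPM in the overexpression controls. ESRP2 was at 1.49 and 0.817 TPM in the knockout comparison (log2 fold change -0.47 ± 0.18, limma, adjusted P = 0.16), again under 1.5 fold.

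Of the 40 list genes tested between the line labels, 6 passed both thresholds, the limma F-test and 1.5 fold, against 10% of all genes. The count is not read as a result on the lists. GUSB, HEXA and TLR4 passed the F-test alone (adjusted P = 0.046, 0.0312 and 0.017) and were under 1.5 fold. PTX3 was at 310 and 308 TPM in 79, 187 and 194 in 86, and 136 and 144 in 87 (adjusted P = 0.00251). Its order over the lines was the reverse of that of HAS2. BCAN, which codes for the proteoglycan brevican, was at 0.079 and 0.103 TPM in 79, 0.540 and 0.565 in 86, and 2.92 and 2.71 in 87 (adjusted P = 0.00548), but its 2 controls were 0.444 and 1.77 TPM. Of the line libraries BCAN reached 1 TPM in 87 alone, so it met the filter through the line where it was high. With either library of 87 left out, or with a filter of 1 TPM in every library, BCAN was not tested. LAYN, which codes for the receptor layilin, was highest in 87, at 47.8 and 49.1 TPM, against 26.1 to 35.6 TPM in the other 2 lines (adjusted P = 0.0238). In line label 86, where UGDH was highest, TMEM2 (17.9 and 19.3 TPM) and ADAM10, a CD44 sheddase (32.7 and 33.4 TPM), were also highest, and UAP1L1, a close relative of the enzyme that makes UDP-N-acetylglucosamine, was lowest (21.7 and 20.1 TPM). Their adjusted P values in the limma F-test were 0.0302, 0.0205 and 0.0126. TMEM2 and ADAM10 were lost when any 1 of the 6 libraries was left out (adjusted P up to 0.129 and 0.0942). Both also came under 1.5 fold with FPKM, as did TMEM2 after median ratio scaling, and without a filter on low values TMEM2 and LAYN were lost (adjusted P = 0.0619 and 0.0626). Among single libraries left out, UAP1L1 was lost without replicate 1 of 79 or either library of 86 (up to 0.0665), and LAYN without either library of 86 or of 87 (up to 0.10). PTX3 passed in all 12 alternatives (adjusted P up to 0.0284).

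**Figure D5:**
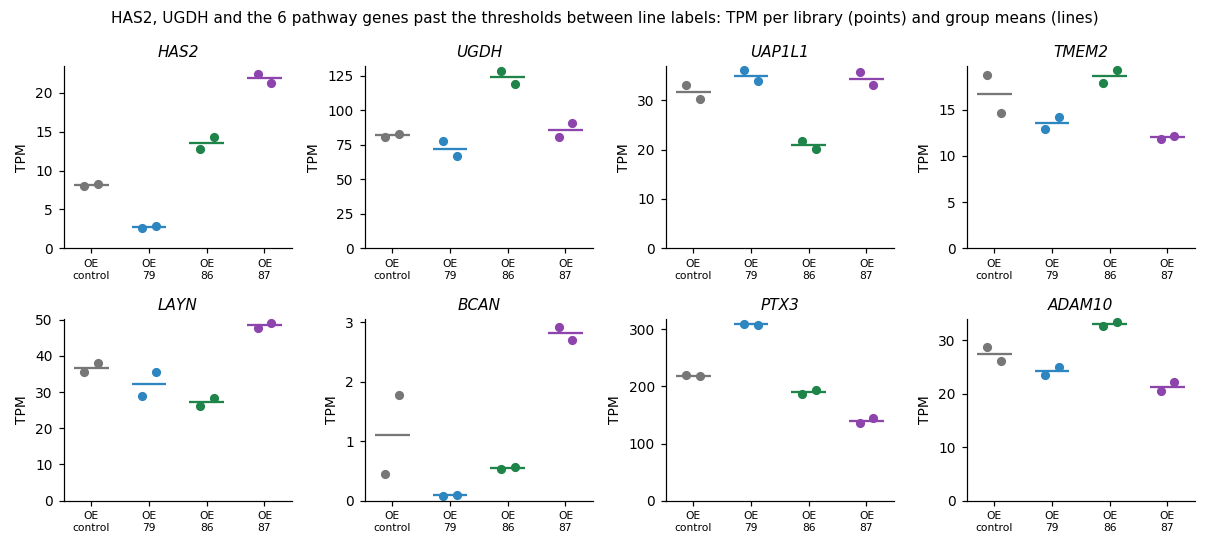
TPM (vertical axes, linear) of HAS2, UGDH and the 6 pathway genes past the thresholds between line labels, in the 8 libraries of the overexpression comparison (points) with group means (lines). HAS2 and BCAN increase in the order 79, 86, 87, PTX3 decreases in that order, and UGDH, TMEM2 and ADAM10 are highest in 86.

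Genes whose pattern was most like that of HAS2 were sought among 10884 others with a mean of at least 5 TPM, over 12 libraries after subtracting the mean of each library batch. The nearest were VEGFC (Pearson r = 0.984), PCSK1N (0.983), ENC1 (0.975), FIG4 (0.974) and SLC7A11 (0.972). VEGFC, a lymphatic growth factor gene, was at 26.9 TPM in the knockout controls, 68.4 in the libraries labelled U11-KO, 56.3 in the overexpression controls, and 39.99, 60.6 and 81.1 in 79, 86 and 87 (means, n = 2 each). SLC7A11, the cystine transporter gene, was at 8.87, 23.0, 32.3, 19.9, 48.3 and 47.0 TPM in the same order. Among the members CD44 was the most like HAS2 (r = 0.736), followed by HAS3 (0.377), UGDH (0.335) and HYAL2 (0.097). For CD44 the nearest genes were ZNF12 (0.935), TMEM63A (0.93), BPGM (0.916), TM2D1 (0.915) and COX17 (0.914). These are descriptions without a test, since libraries of one batch and line share their origin, and genes of similar level share the scaling of a library.

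Markers of other cell types were read beside these results. The 7 fibroblast markers summed to 1.74 and 1.76 TPM in the knockout controls, 2.64 and 3.49 in the libraries labelled U11-KO, 3.33 and 4.03 in the overexpression controls and 2.16 to 4.27 TPM in the libraries labelled U11-OE, with PDGFRB and COL1A1 the markers that reached 1 TPM. The 7 leukocyte markers summed to 1.5 to 8.11 TPM over all libraries, with CD68 or CD14 the markers that reached 1 TPM. Of 5 endothelial markers only CDH5 reached 1 TPM. It was at 4.85 and 4.75 TPM in the knockout controls and 0.032 and 0.029 in the libraries labelled U11-KO. CDH5 was at 34.1 and 32.2 TPM in line label 79, where HAS2 was lowest, and at 3.08 to 5.28 TPM in the other libraries of the overexpression comparison, while PECAM1, VWF, TEK and KDR stayed under 1 TPM. Their part in the values of the hyaluronan genes was not tested.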

How the data were processed

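Reads of 12 T24 libraries were processed by the authors with fastp, Hisat2 (hg38) and Stringtie. The authors deposited 1 gene table per library with coverage, FPKM and TPM, and no counts, so the DESeq2 analysis named in the methods was not repeated. TPM sums to 1000000 in each library. The depth was read from the deposited FPKM and coverage columns, and mean depth per position is FPKM times aligned gigabases. No counting interval can be given for TPM.

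Groups were taken from the treatment labels. limma 3.58.1 in R 4.3.3 was run on log2(TPM + 1) over all genes that reached 1 TPM in 2 or more libraries of a comparison (lmFit, eBayes with trend, Benjamini-Hochberg adjustment). Genes were called at an unadjusted P under 0.05 and 1.5 fold, and between line labels at an adjusted P under 0.05 (moderated F-test) and 1.5 fold. The fits were also run on simulated data in which 200 genes were changed. Errors were drawn independently for each library, so the shared line labels were not simulated, and nothing on the calls is drawn from it. The members and the pathway lists were chosen with earlier results of these data known. Named genes are the members, entries overlapping them, RNU11, up to 4 called genes per list and comparison by size of change, and the 5 nearest patterns of HAS2 and CD44. Other pathway and marker list genes that are named fall outside this rule and were singled out after their values were seen. 2078 entries share a symbol with another, so genes were followed by identifier.

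The library identifiers of the overexpression comparison mark 2 batches, each with 1 control and 1 library per line. Deviations of same-batch libraries correlated at 0.07 to 0.15 over 6 pairs of groups, so the batch was also fitted as a block. Alternatives were a pseudocount of 0.1, FPKM, median ratio scaling, quantile normalization, other filters, no trend, adjusted P, all 4 untreated libraries, blocks, line means and each library left out. Python 3.11.15, numpy 2.4.6, pandas 2.3.3 and matplotlib 3.10.9 were used. Pathway genes without a value of their own, among them 1 that is not reported here, enter only the counts, medians and plot.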

Additional observations from a re-analysis of the deposited data

Results flagged for a closer look

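Between line labels, both libraries of one line moved against those of another, relative to the control of their library batch, for 2 members. For HAS2 the mean log2 difference from control was 1.96 higher in 86 than in 79 and 2.62 higher in 87 than in 79. For UGDH it was 0.78 higher in 86 than in 79. The differences between pairs of lines were not tested on their own. The F-test over all genes, whose thresholds HAS2 and UGDH passed, is given in the report as a description, because the line labels were part of how the genes were chosen.

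Of the other pathway genes, 6 were past the F-test and 1.5 fold thresholds between the line labels, as were 10% of all genes. Adjusted P values in the limma F-test were 0.0126 for UAP1L1, 0.0302 for TMEM2 and 0.0238 for LAYN. For BCAN, PTX3 and ADAM10 they were 0.00548, 0.00251 and 0.0205. The calls of UAP1L1, TMEM2, LAYN and ADAM10 were lost in some of the alternatives, as given in the report. BCAN met the filter on low values only through 87, the line where it was high. It was tested in 9 of the 12 alternatives. With either library of 87 left out, or with a filter of 1 TPM in every library, BCAN was not tested.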

How the results depend on the processing

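Limits are the number of libraries (2 per group, 6 in U11 overexpression), 1 batch for the knockout comparison, and the choice of controls. Calls over all genes numbered 1688 (knockout), 304 (overexpression) and 1550 (line labels). With adjusted P they were 984 and 26, and pathway calls fell to 3 higher and 1 lower in the knockout comparison and 0 lower in the overexpression comparison. With all 4 untreated libraries, which joins library types of different composition, they were 976 and 3233, with 0 pathway genes higher in the knockout comparison, 8 higher and 0 lower in the overexpression comparison, and VCAN reversed in the knockout comparison (log2 fold change -0.09). FPKM gave 154 overexpression calls with 1 pathway gene lower, a filter of 1 TPM in every library gave 175 with 0, and no filter gave 922 line calls. Fewer genes passed the filter with FPKM. The other causes were not tested.

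Leaving out 1 library gave 1385 to 2511 knockout calls (3 to 8 pathway genes higher, 2 to 3 lower), 264 to 380 overexpression calls (0 higher, 2 lower), and 524 to 794 line calls (2 to 4 pathway genes). Where 1 library was left in a group, it was assumed to vary like the others. The log2 fold change of HAS2 stayed between 2.29 and 3.35 over 13 alternatives in the knockout comparison, and over 18 between 0.01 and 0.92 in the overexpression comparison. Set against all 4 untreated libraries, the sign of the log2 fold change turned in the knockout comparison for CD44 (0.52 to -0.09), HAS3 (0.03 to -1.03), HYAL2 (0.18 to -0.02) and HYAL3 (0.13 to -0.20), and in the overexpression comparison for CD44 (-0.29 to 0.32), HAS3 (-0.45 to 0.61) and HYAL3 (-0.07 to 0.26). The HAS2 share of the synthases is the same from FPKM by construction, since TPM is FPKM rescaled within a library, so this was no check.

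With the replicate block, calls were 1706 in the knockout comparison, where same-numbered libraries share only a number (correlation of deviations 0.024), 284 in the overexpression comparison and 1509 between line labels, and pathway counts did not move. The mean of each line label gave 302 overexpression calls, with 0 pathway genes higher and 2 lower.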

Other observations

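SLC9A3R1, the ezrin-binding scaffold gene, had discordant libraries within line labels. It was at 90.8 and 20.6 TPM in 79 and at 68.4 and 26.9 TPM in 86, with the higher value in the same library batch in both lines, while it was at 26.8 and 26.4 TPM in 87 and 30.8 and 22.7 TPM in the controls. CD3E, a T cell gene, was at 0.502 to 0.915 TPM in the 4 libraries of the other batch and at most 0.052 TPM in the remaining 8 libraries. PTPRC, a leukocyte gene, was at 0.2655 to 0.496 TPM in the same 4 libraries and at most 0.068 TPM in the remaining 8. The source of these values was not tested.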
